A study of Homo sapiens with 6 samples.

Results

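The BCL2 family decides whether the outer mitochondrial membrane stays sealed, and its transcripts were followed here in neuroblastoma cells given inhibitors of histone deacetylases (HDACs). The 10 genes BCL2, BCL2L1, MCL1, BAX, BAK1, BCL2L11, PMAIP1, BBC3, BID and BMF were selected by symbol from the 36601 genes in the count files, and all 10 were found and had enough counts to be tested. SK-N-BE(2)-C is an immortal line, cloned from the SK-N-BE(2) neuroblastoma culture, with amplified MYCN. All 6 libraries were made from this line, 2 from cells given DMSO (the usual solvent control), 2 from cells given TSA (the usual abbreviation of trichostatin A, which blocks HDAC catalysis) and 2 from cells given E6R. By its title the series concerns an HDAC complex inhibitor described as non-enzymatic. The sources used here gave no doses, treatment times or structure of E6R, nor did they say whether the 2 libraries of a treatment came from separate cultures, so the p-values measure the spread between these libraries, which may be technical.

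In the mitochondrial pathway of apoptosis, BAX and BAK1 are the effectors that open the outer membrane and let cytochrome c out. BCL2, BCL2L1 (the gene of BCL-XL) and MCL1 hold them in check, and the BH3-only proteins BCL2L11 (BIM), PMAIP1 (NOXA), BBC3 (PUMA), BID and BMF bind the guards, and in part the effectors, to tip the balance towards death. BCL2 is abundant in many neuroblastomas and is the target of BH3-mimetic drugs.

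Single cells were captured with Seq-Well S3, which loads cells and barcoded beads into small wells, and transcripts were counted as unique molecular identifiers (UMIs). A barcode was kept as a cell if it had at least 500 genes and at most 20% of its UMIs from mitochondrial genes, which left 17589 cells, 1861 to 3946 in a library. Sums over the cells kept in a library came to between 4206366 and 26180262 UMIs, and levels are given as CPM (UMIs of a gene scaled to a fixed library total) with library sizes scaled by edgeR's TMM factors. DMSO had the shallowest sums. Mitochondrial genes took 5.83% and 6.20% of UMIs under DMSO, 6.08% and 9.71% under TSA, and 1.55% and 1.51% under E6R. All 8 markers of the line, among them HAND2, GATA3, ISL1 and STMN2, were detected in every library. Pairs of libraries shared 11 to 58 cell barcodes, at most 2.11% of the cells of a library.

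TSA against DMSO asked which members moved when HDAC catalysis was blocked. BCL2, BID and BCL2L1 fell and BMF rose, while the transcripts of MCL1, BAX, BAK1, BCL2L11, PMAIP1 and BBC3 did not pass the test. This made 4 of 10 members called at an adjusted p under 0.05, 1 higher and 3 lower. Among all 16763 genes tested, 29.7% were called, 16.2% higher and 13.5% lower, so the share of members called was near that of all genes. Scaling by total counts in place of TMM turned the calls over all genes from 2720 higher and 2255 lower into 1717 higher and 3361 lower, and moved the median log2 fold change of all genes from -0.01 to -0.32. The median over the 10 members was 0.20 with TMM. At an unadjusted p under 0.05 there were 5 members, against 42.6% of all genes, and the DMSO and TSA libraries did not overlap for 7 members, against 71.3% of all genes.

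BCL2 (ENSG00000171791, GRCh38 chromosome 18, 63123346 to 63320128, minus strand) stood at 61.6 and 25.2 CPM in DMSO replicates 1 and 2, at 3.27 and 3.22 CPM in the TSA replicates, and at 92.0 and 30.4 CPM in the E6R replicates. Both TSA libraries were far below every other library, and the DMSO and E6R libraries overlapped. On average BCL2 was 13.4-fold lower under TSA than under DMSO, with a fitted log2 fold change of -3.74 (SE 0.63, adjusted p = 0.00504). The fall was 18.9-fold between the libraries numbered 1 and 7.84-fold between those numbered 2. The log2 value was -2.92 without DMSO replicate 1 and -4.32 without DMSO replicate 2. Without TSA replicate 1 the adjusted p was 0.0502 and without TSA replicate 2 it was 0.0555, at log2 values of -3.72 and -3.69.

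BCL2L1 (ENSG00000171552, chromosome 20, 31664452 to 31723989, minus strand), whose product guards the same step, had 30.8 and 31.9 CPM under DMSO, 17.1 and 20.03 CPM under TSA, and 28.9 and 27.4 CPM under E6R. The TSA libraries were the lowest, by a margin much smaller than for BCL2. Its mean was 1.69-fold lower under TSA than under DMSO (log2 fold change -0.76, SE 0.22, adjusted p = 0.0361). This call was lost without any single DMSO or TSA library, with adjusted p of 0.132 and 0.0999 without DMSO replicates 1 and 2 and 0.235 and 0.138 without TSA replicates 1 and 2. It was also lost without the 5% of cells with most UMIs (0.0559) and with cells thinned to 1000 UMIs (0.108). BCL2L1 overlaps ABALON on the other strand, which had 1 to 28 UMIs in a library against 145 to 727 for BCL2L1. MCL1 (ENSG00000143384, chromosome 1, 150574551 to 150579738, minus strand), a short-lived guard protein, had 105 and 127 CPM under DMSO, 123 and 128 under TSA, and 139 and 79.8 under E6R. Its groups overlapped, and its log2 fold change for TSA was 0.12 (95% interval -0.52 to 0.75, adjusted p = 0.77), or -0.19 when scaled by total counts.

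Of the effectors neither passed the test for TSA. BAX (ENSG00000087088, chromosome 19, 48954815 to 48961798, plus strand) had 33.1 and 27.5 CPM under DMSO, 26.9 and 18.2 under TSA, and 50.5 and 38.1 under E6R. BAK1 (ENSG00000030110, chromosome 6, 33572547 to 33580293, minus strand) had 19.6 and 19.7 CPM under DMSO, 34.3 and 25.9 under TSA, and 22.4 and 19.9 under E6R. The TSA libraries were the lowest of the 6 for BAX and the highest for BAK1. Their log2 fold changes for TSA were -0.43 (adjusted p = 0.274) and 0.62 (adjusted p = 0.0926). The annotation also names the pseudogenes BAK1P1 and BAK1P2, so reads of BAK1 may be split.

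BID (ENSG00000015475, chromosome 22, 17734138 to 17774770, minus strand), which caspase-8 cleaves to link death receptors to mitochondria, had 63.1 and 44.2 CPM under DMSO, 10.3 and 7.49 CPM under TSA, and 97.5 and 86.2 CPM under E6R. The 3 treatments did not overlap, with TSA lowest and E6R highest. The mean was 6.05-fold lower under TSA than under DMSO (log2 fold change -2.59, SE 0.27, adjusted p = 0.00114). The fold was 6.15 between the libraries numbered 1 and 5.90 between those numbered 2. BID passed in all 20 alternatives tried for this comparison, with adjusted p of at most 0.0221.

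BMF (ENSG00000104081, chromosome 15, 40087890 to 40108892, minus strand), a sensor tied to the cytoskeleton, had 6.80 and 2.87 CPM under DMSO, 21.2 and 18.7 CPM under TSA, and 10.7 and 3.20 CPM under E6R. Both TSA libraries lay above all others. The mean was 4.13-fold higher under TSA than under DMSO (log2 fold change 2.05, SE 0.62, adjusted p = 0.0411), a rise of 3.12-fold between the libraries numbered 1 and 6.53-fold between those numbered 2. The log2 value was 2.83 without DMSO replicate 1 (adjusted p = 0.0625), 1.48 without DMSO replicate 2 (0.206), 1.99 without TSA replicate 1 (0.157) and 2.18 without TSA replicate 2 (0.132). Scaled by total counts it was 1.74 (adjusted p = 0.0657). The call of BMF was also lost with a mitochondrial share of at most 10% (0.0517), without the 5% of cells with most UMIs (0.0805) and with library sums thinned to the smallest (0.0591). BMF-AS1 on the other strand had at most 1 UMI in a library, against 15 to 279 for BMF.

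The other BH3-only genes were low and did not pass. BCL2L11 (ENSG00000153094, chromosome 2, 111119378 to 111168447, plus strand) had 17.4 and 6.89 CPM under DMSO, 19.7 and 19.2 under TSA, and 24.3 and 7.86 under E6R. It overlaps MIR4435-2HG on the other strand, which had 58 to 468 UMIs in a library against 36 to 385 for BCL2L11, so their reads may not be separable without the authors' strand rule. PMAIP1 (ENSG00000141682, chromosome 18, 59899948 to 59904306, plus strand) had 13.0 and 6.50 CPM under DMSO, 13.6 and 9.93 under TSA, and 16.9 and 16.4 under E6R. BBC3 (ENSG00000105327, chromosome 19, 47220822 to 47232766, minus strand) had 3.19 and 1.72 CPM under DMSO, 3.65 and 3.05 under TSA, and 2.21 and 1.92 under E6R, from 9 to 51 UMIs in a library. The log2 fold changes for TSA were 0.68 for BCL2L11 (95% interval -0.66 to 2.02), 0.28 for PMAIP1 (-0.60 to 1.16) and 0.45 for BBC3 (-0.72 to 1.63), so changes in either direction remained within the interval of each. Scaled by total counts PMAIP1 was at -0.03.

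The stretches before the gene starts are shown for the called members whose RefSeq promoter entry reaches outside the annotated gene, so that the letters in front of a gene that fell (BID, BCL2L1), one that rose (BMF) and one that was higher under E6R than under TSA (BAX) can be read side by side. The sequences are from RefSeq (GRCh38.p14), 5′ to 3′ on the gene's strand, and run up to the gene start in GENCODE 29. Capitals mark 3 motifs, each searched on both strands. The GC box was read as GGGCGG, the CCAAT box as the letters in its name, and the E-box, which MYC family proteins bind, as CACGTG. No overlap between these motifs occurs in the stretches shown. The BCL2 entry lies inside the annotated gene and is not printed.
BID, chr22:17774771-17774915, minus strand: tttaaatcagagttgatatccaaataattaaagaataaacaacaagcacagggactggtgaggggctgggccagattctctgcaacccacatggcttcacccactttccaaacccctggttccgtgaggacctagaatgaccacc
BCL2L1, chr20:31723990-31724213, minus strand: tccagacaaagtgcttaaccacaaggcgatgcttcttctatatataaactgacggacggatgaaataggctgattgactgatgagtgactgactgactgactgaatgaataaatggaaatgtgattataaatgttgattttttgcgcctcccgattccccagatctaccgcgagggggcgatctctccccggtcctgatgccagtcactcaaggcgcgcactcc
BMF, chr15:40108893-40109129, minus strand: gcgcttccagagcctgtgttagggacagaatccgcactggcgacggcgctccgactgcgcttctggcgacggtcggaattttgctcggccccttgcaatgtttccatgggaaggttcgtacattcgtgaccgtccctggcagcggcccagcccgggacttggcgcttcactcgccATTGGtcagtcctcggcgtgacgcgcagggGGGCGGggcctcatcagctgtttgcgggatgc
BAX, chr19:48954625-48954814, plus strand: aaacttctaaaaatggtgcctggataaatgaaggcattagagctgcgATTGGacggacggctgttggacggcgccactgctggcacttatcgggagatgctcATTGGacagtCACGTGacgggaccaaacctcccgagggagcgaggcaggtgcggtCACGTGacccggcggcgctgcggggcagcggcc

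None of the 3 motifs was in the BID and BCL2L1 stretches, which says only that these letters are not in these windows. BID has 5 promoter entries in RefSeq, and the 4 others lie inside the annotated gene and are not printed. Each of these held at least 1 GC box, with up to 4, and 2 of them held an E-box. These entries overlap in pairs, so shared motifs, the E-box among them, are counted in both entries of a pair. The second entries of BCL2L1 and BMF held none of the motifs. The BMF stretch of 237 bases held 1 GC box and 1 CCAAT box, as 41.0% and 31.2% of all promoter entries did in windows of that length. The BAX stretch of 190 bases held 2 E-boxes and 2 CCAAT boxes. The whole BAX entry of 250 bases, which runs into the gene, held 4 E-boxes, 2 CCAAT boxes and 1 GC box. Of 35116 promoter entries, 96 (0.273%) had at least 2 E-boxes in a window of 190 bases, and BAX was singled out after this was seen. RefSeq promoter entries matched 9 of the 10 members.

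**Figure D1:**
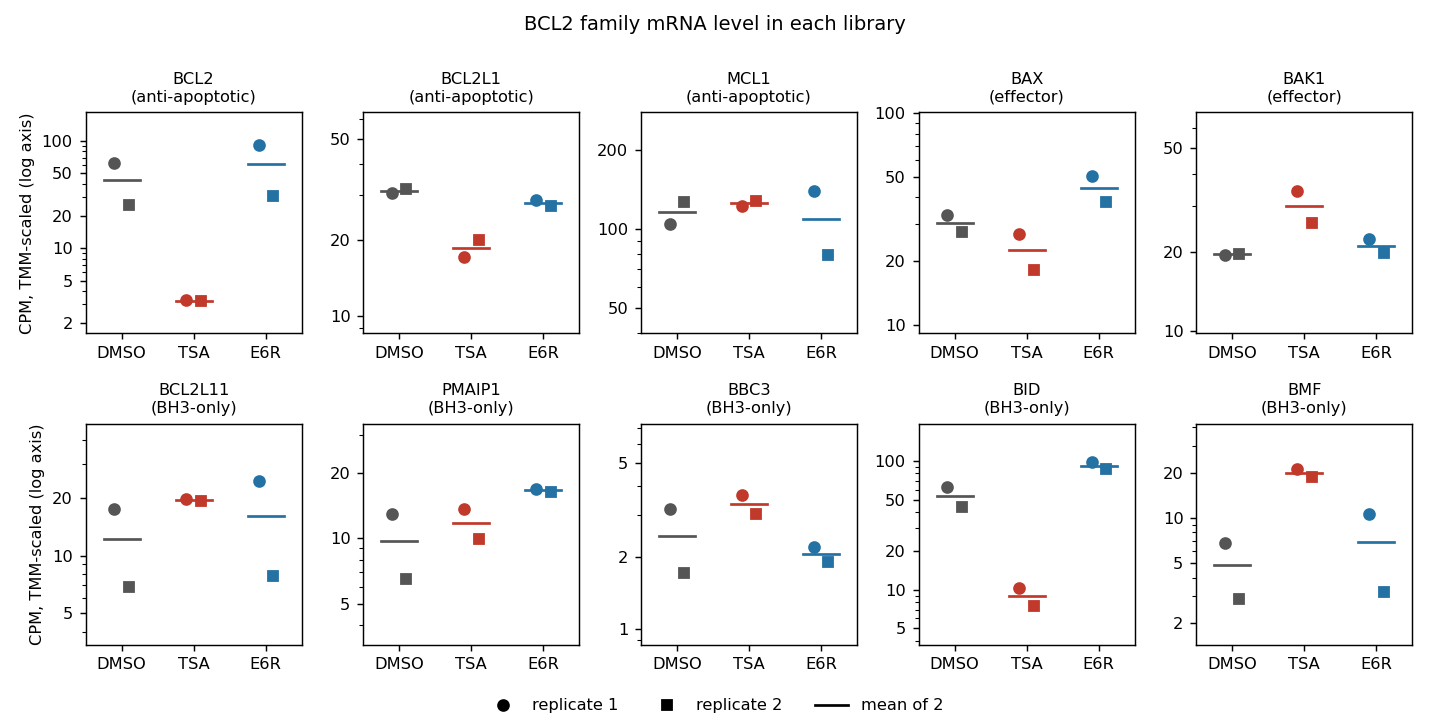
Level of each of the 10 genes in the 6 libraries, as TMM-scaled CPM on log axes that differ between panels; circles are replicate 1, squares replicate 2 and lines the mean of 2. BCL2 and BID are lowest under TSA (3.22 to 3.27 and 7.49 to 10.3 CPM), and BMF is highest there (18.7 to 21.2 CPM).

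**Figure D2:**
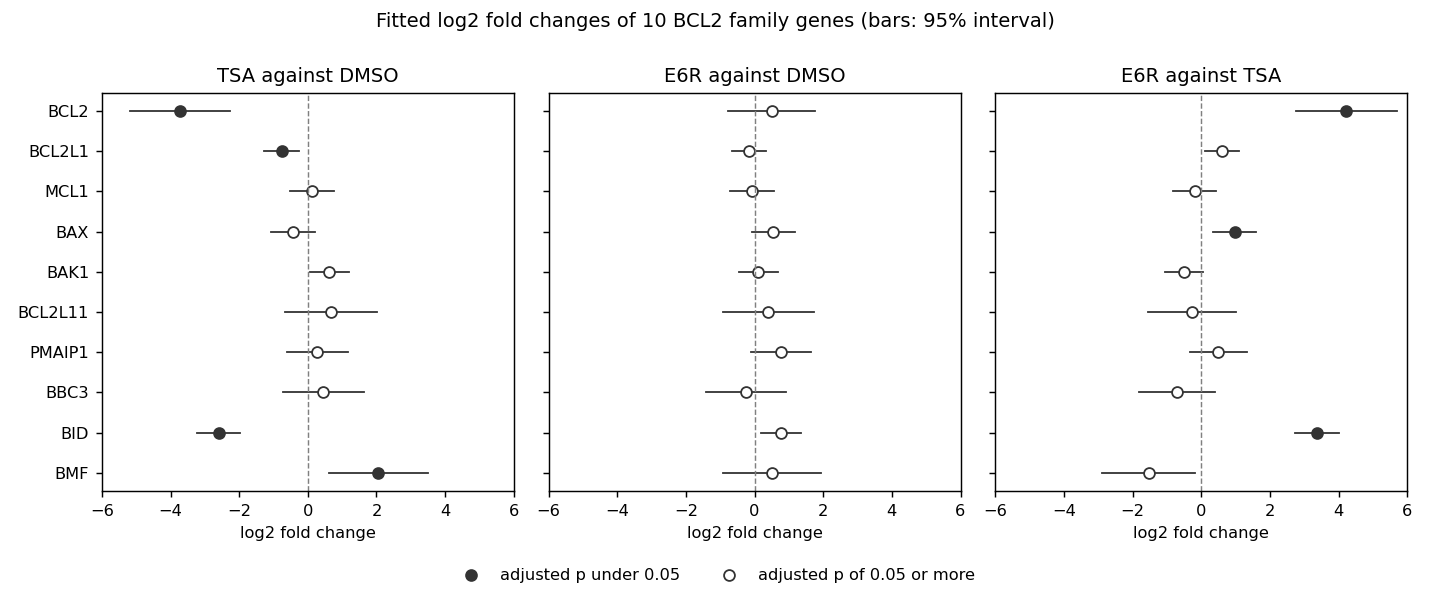
Fitted log2 fold change of each gene in the 3 comparisons, with 95% intervals as bars and filled points for an adjusted p under 0.05. Filled points are BCL2, BCL2L1, BID and BMF for TSA against DMSO, none for E6R against DMSO, and BCL2, BAX and BID for E6R against TSA.

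The contrast of E6R with DMSO put the question to the second compound. No member passed edgeR's test, 0 of 10, as no gene passed among all 16763 (0%). At an unadjusted p under 0.05 there was 1 member, BID, against 17.4% of all genes, and DESeq2 called 0 of 10 and 338 of all genes. BID stood at 97.5 and 86.2 CPM under E6R, above both DMSO libraries at 63.1 and 44.2 CPM. Its mean was 1.71-fold higher (log2 fold change 0.78, SE 0.25, adjusted p = 0.218). It passed without the low-count filter, with an adjusted p of 0.0217, in a fit that called 1095 of 31532 genes (3.47%). For BCL2 in TSA against DMSO that fit gave an adjusted p of 1.9e-28 at -3.82, against 0.00504 at -3.74 in the main fit. Its p-values can thus differ widely from those of the main fit, and the reason was not tested. BAX was above both DMSO libraries too (log2 fold change 0.55, SE 0.27, adjusted p = 0.345), and so was PMAIP1 (0.78, SE 0.38, adjusted p = 0.331). BAX, BAK1, PMAIP1 and BID were higher in both E6R libraries than in both DMSO libraries and BCL2L1 was lower, 5 of 10 members without overlap, where 47.3% of all genes tested had none. The mitochondrial share of UMIs was lower in both E6R libraries than in both DMSO libraries (above), and its part in these values was not tested.

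Among the guards the interval was narrowest for BCL2L1 and widest for BCL2. The log2 difference of E6R from DMSO was -0.16 for BCL2L1 (95% interval -0.66 to 0.35), -0.08 for MCL1 (-0.71 to 0.55) and 0.49 for BCL2 (-0.76 to 1.75). The fall of BCL2 seen with TSA lies outside the last of these intervals. For BMF the difference was 0.52 (-0.91 to 1.94) and for BCL2L11 it was 0.40 (-0.93 to 1.74). For BAK1 it was 0.11 (-0.46 to 0.67, and -0.02 when scaled by total counts) and for BBC3 -0.24 (-1.42 to 0.93).

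The contrast of E6R with TSA set both compounds against each other directly. BCL2, BID and BAX were higher under E6R, 3 of 10 members, where 38.2% of all genes were called and 18.7% were called higher. At an unadjusted p under 0.05 there were 5 members (48.5% of all genes), and 8 members did not overlap between the 2 treatments (72.6% of all genes). BID was 10.4-fold higher (log2 fold change 3.37, SE 0.28, adjusted p = 0.000359), and BCL2 18.9-fold higher (4.23, SE 0.64, adjusted p = 0.00214). Both passed in all 20 alternatives. Leaving out E6R replicate 1 gave 3.30 for BCL2, and leaving out E6R replicate 2 gave 4.84. BAX was 1.96-fold higher (0.97, SE 0.27, adjusted p = 0.0247), and its call was lost without TSA replicate 2 (adjusted p = 0.191), without E6R replicate 1 (0.0601), without the 5% of cells with most UMIs (0.0620) and with library sums thinned to the smallest (0.0520). BCL2L1 (0.60, adjusted p = 0.0610) and BMF (-1.54, adjusted p = 0.0694) did not pass. In the 20 alternatives BCL2L1 passed in 5 and BMF in 4. BMF passed when the replicate number was fitted as a block (log2 fold change -1.77, adjusted p = 0.00397) and without E6R replicate 1 (-2.57, adjusted p = 0.0036). BAK1 had a log2 difference of -0.51 (95% interval -1.06 to 0.04), MCL1 of -0.20 (-0.83 to 0.43), PMAIP1 of 0.50 (-0.34 to 1.34), BCL2L11 of -0.28 (-1.56 to 1.01) and BBC3 of -0.70 (-1.80 to 0.41). This comparison shares the TSA libraries with TSA against DMSO, so the 2 sets of values are not independent.

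Detection in single cells was sparse, so shares of cells with at least 1 UMI were compared after each cell was thinned to 1000 UMIs, with shallower cells left out (674 and 1450 DMSO, 615 and 503 TSA, 692 and 1718 E6R cells). BCL2 was found in 5.73% (exact Clopper-Pearson 95% interval 4.48 to 7.21) and 2.32% (1.65 to 3.16) of DMSO cells. Under TSA the shares were 0.108% (0.0131 to 0.390) and 0.215% (0.0790 to 0.468), and under E6R 6.91% (5.89 to 8.05) and 3.37% (2.657 to 4.202). The intervals of the TSA libraries lay below those of all other libraries. Before thinning, BCL2 was in 11.2% and 3.42% of DMSO cells, 1.66% and 1.03% of TSA cells and 20.4% and 10.6% of E6R cells. All intervals cover counting error only, and an exact permutation test of 2 libraries against 2 (two-sided) reaches p = 0.333 at the lowest.

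BID was found in 6.15% and 4.46% of thinned DMSO cells, 1.13% and 0.753% of TSA cells, and 8.46% and 6.87% of E6R cells. BMF was in 1.01% and 0.357% of DMSO cells, 2.05% and 1.43% of TSA cells, and 1.05% and 0.673% of E6R cells. BAX was in 3.62% and 2.97% of DMSO cells, 1.84% and 1.58% of TSA cells, and 4.64% and 3.01% of E6R cells. BID and BAX were thus detected least often in the TSA libraries. For BAX the interval of TSA replicate 1 (1.27 to 2.56) overlapped those of DMSO replicate 2 (2.21 to 3.90) and E6R replicate 2 (2.34 to 3.80). BMF was detected most often there. Both its TSA intervals (1.46 to 2.81 and 1.03 to 1.95) overlapped those of DMSO replicate 1 (0.523 to 1.76) and E6R replicate 1 (0.664 to 1.57). That of TSA replicate 2 also overlapped E6R replicate 2 (0.377 to 1.11). MCL1 was found in 7.63% to 11.9% of cells of a library, and BBC3 in 0.108% to 0.337%.

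Barcodes with 100 to under 300 genes give a second measurement, and whether they held free RNA, shallow cells or damaged cells was not tested. Their median depth was 154 to 250 UMIs against 1054 to 1880 in cells. By plain UMI sums BCL2 had 54.0 and 20.7 CPM in the small barcodes under DMSO and 4.29 and 4.32 CPM under TSA, and 3.01 and 2.78 CPM in TSA cells (exact Poisson 95% intervals 2.18 to 4.06 and 1.96 to 3.83). BID under TSA had 9.45 and 6.46 CPM in cells and 11.6 and 12.4 CPM in small barcodes. BMF had 19.5 and 16.1 CPM in TSA cells and 19.6 and 11.7 CPM in the small barcodes. BCL2L1 in DMSO replicate 2 had 34.8 CPM in cells and 36.3 CPM in small barcodes. In TSA replicate 1 BCL2L1 had 15.8 CPM in cells and 7.35 CPM in small barcodes. BID in E6R replicate 2 had 87.5 CPM in cells and 54.8 CPM in small barcodes. The levels of both kinds of barcode were thus close for some genes and libraries and apart for others. These levels do not measure what share of the UMIs in cells was free RNA.

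**Figure D3:**
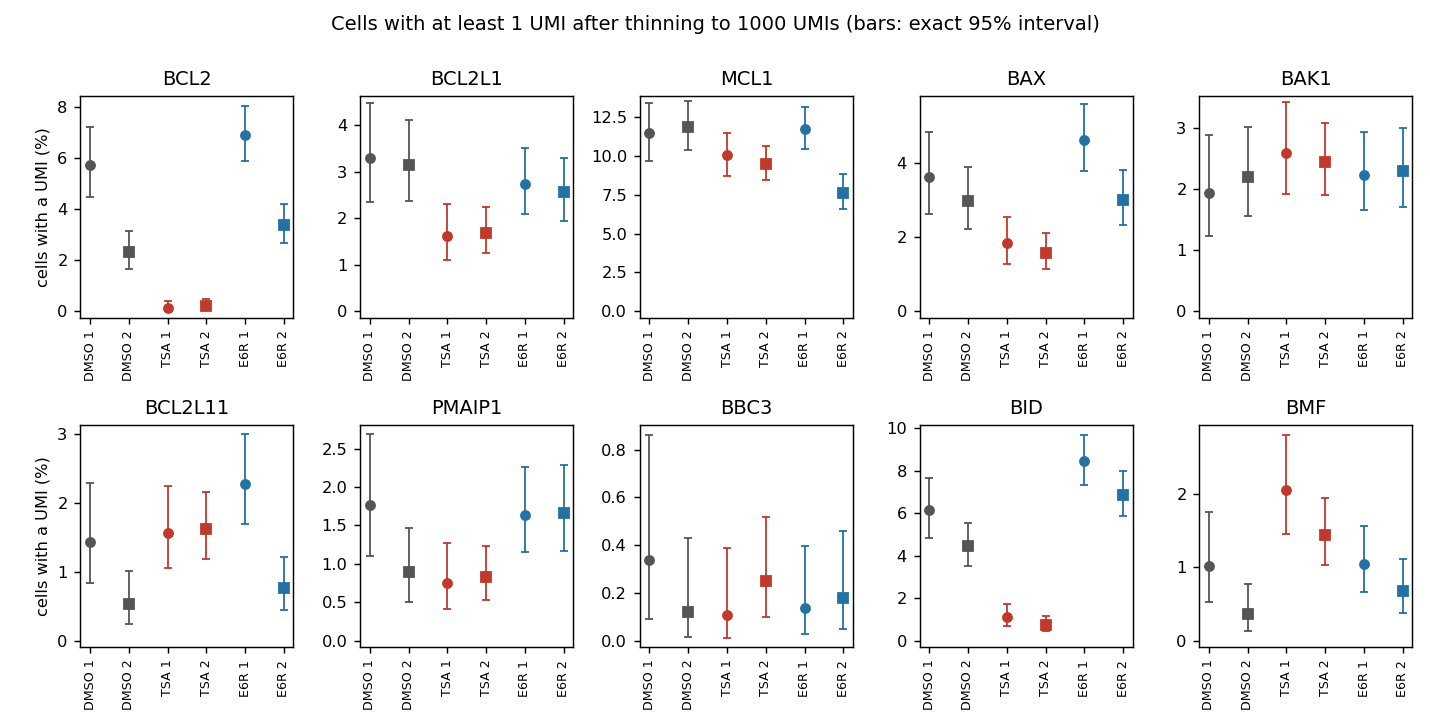
Share of cells with at least 1 UMI of each gene after thinning to 1000 UMIs, per library, with exact 95% intervals. For BCL2 the TSA libraries lie at 0.108% and 0.215%, against 2.32% to 6.91% in the others.

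The libraries of a treatment differed most for BCL2, BCL2L11 and BMF. Replicate 1 was above replicate 2 by 1.28, 1.32 and 1.20 on the log2 scale (CPM with a prior count of 2) under DMSO, and by 1.59, 1.61 and 1.69 under E6R. Under TSA the same differences were 0.02, 0.04 and 0.18. Over all tested genes, 17.7% differed by more than 1 between the DMSO libraries, 17.1% between the E6R libraries and 6.91% between the TSA libraries. The spread between libraries thus set the precision for these 3 genes, and BCL2L11 in particular had 17.4 and 24.3 CPM in the DMSO and E6R libraries numbered 1 against 6.89 and 7.86 in those numbered 2. BCL2L1, BAK1 and BID differed by at most 0.51 in each treatment.

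Summed markers of fibroblasts and of epithelial and endothelial cells were also higher in replicate 1 of each treatment, though not every gene was. The 5 fibroblast markers (COL1A1, COL1A2, PDGFRA, DCN and LUM), all detected in all libraries, summed to 111 and 22.9 CPM in DMSO replicates 1 and 2, 261 and 24.7 CPM in the E6R replicates and 117 and 67.1 CPM in the TSA replicates. DCN alone had 63.7 and 2.09 CPM under DMSO and 165 and 1.95 CPM under E6R. COL1A2 went the other way under DMSO, at 0.951 and 5.84 CPM. The 5 epithelial and endothelial markers (EPCAM, KRT5, CDH1, PECAM1 and VWF) summed to 38.0 and 4.38 CPM under DMSO, 40.1 and 2.33 under E6R, and 9.87 and 4.28 under TSA, with KRT5 at 0 in 4 libraries and CDH1 at 0 in 1 of them. Under DMSO most of these sums came from PECAM1 (24.2 and 1.25 CPM) and VWF (12.1 and 1.67 CPM), and KRT5 and CDH1 were higher in replicate 2. The 5 immune markers summed to 0.601 to 2.52 CPM, with 0.951 and 1.88 CPM under DMSO, and CD3E was at 0 in 5 libraries. The part of these markers in the levels of BCL2, BCL2L11 and BMF was not tested.

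**Figure D4:**
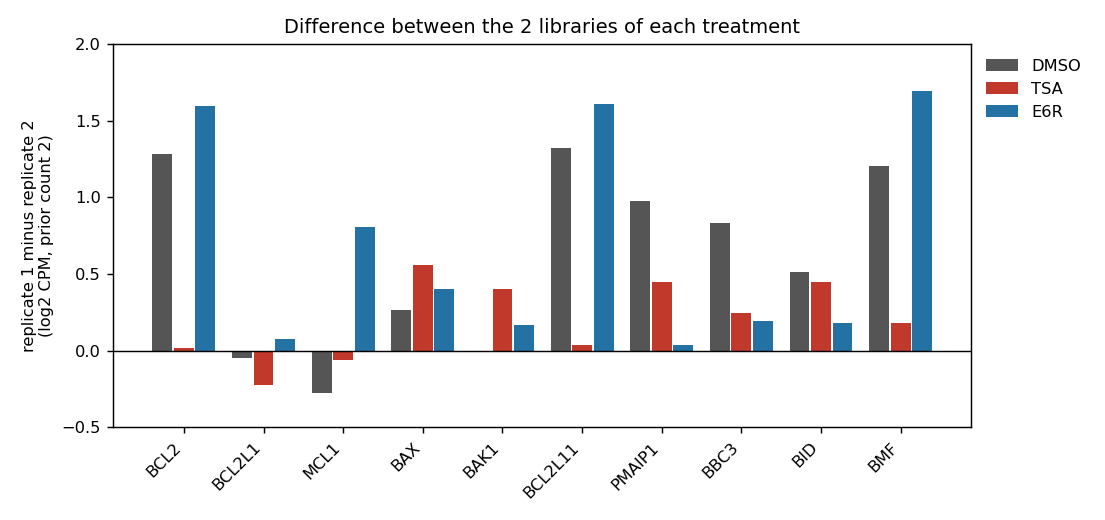
Difference of replicate 1 from replicate 2 in log2 CPM (prior count 2) for each gene and treatment. BCL2, BCL2L11 and BMF differ by 1.20 to 1.69 under DMSO and E6R and by at most 0.18 under TSA.

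Whether the family moved with the cell cycle was examined within libraries. The 25% of thinned cells with most UMIs of 15 mitotic genes was set against the other cells of the same library (2984 against 8953 cells in all). This is a range of a score and not a cell type, and 72 to 275 cells of a library had exactly the score of the cut. Of the 10 members 8 could be tested and 0 passed edgeR's test, with the library as a block, against 6.36% of 8775 genes (3.98% higher). At an unadjusted p under 0.05 there were 2 members against 17.7% of all genes tested. BID was lower in the mitotic-high cells in 6 of 6 libraries (log2 difference -0.40, SE 0.16, adjusted p = 0.145). BCL2L1 had a log2 difference of -0.44 (SE 0.22, adjusted p = 0.262) and was higher in the mitotic-high cells in 2 of 6 libraries. For MCL1 the difference was -0.08 (95% interval -0.28 to 0.13). BMF and BBC3 were too low in these sums to be tested.

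The rest of the apoptosis pathway was described with 7 lists of 68 genes, of which 63 could be tested. For TSA 16 of the 63 were called (25.4%), 7 higher and 9 lower, against 29.7% of all genes. For E6R against DMSO 0 of 63 passed edgeR's test, against 0% of all genes. At an unadjusted p under 0.05 there were 12, against 17.4% of all genes, and DESeq2 called 2, against 2.02% of all genes. For E6R against TSA 23 of 63 were called (36.5%), 15 higher and 8 lower, against 38.2% of all genes. At the entry from death receptors, CFLAR, the inhibitor of caspase-8 activation, had 46.3 and 37.9 CPM under DMSO and 4.18 and 5.92 under TSA (log2 fold change -3.06, SE 0.29, adjusted p = 0.000918). TNFRSF1A, a receptor for tumour necrosis factor, was lower (log2 fold change -1.89, SE 0.44, adjusted p = 0.0163). TNFRSF10B, the receptor for TRAIL known as DR5, rose from 3.51 ± 0.451 (SD, n = 2) to 23.5 ± 8.29 CPM (log2 fold change 2.74, SE 0.39, adjusted p = 0.0028); its mean over the libraries was under the 20 CPM of the naming rule and it was chosen after its values were seen. The death receptor list had 1 gene higher and 3 lower of 10 tested, against 16.2% and 13.5% of all genes. Its median log2 fold change was -0.50. CFLAR and TNFRSF10B passed in all 20 alternatives, and TNFRSF1A was lost without DMSO replicate 1 or either TSA replicate (adjusted p up to 0.134).

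Downstream of the mitochondria the genes of the apoptosome and of caspase control went in both directions. XIAP, which inhibits caspases, had 146 and 101 CPM under DMSO and 23.5 and 25.3 under TSA (log2 fold change -2.33, SE 0.23, adjusted p = 0.00101). It was the gene called among 6 tested inhibitors of caspases, against 29.7% of all genes. ENDOG, a mitochondrial nuclease, had 171 and 161 CPM under DMSO and 44.3 and 36.0 under TSA (-2.05, SE 0.21, adjusted p = 0.00108). Both passed in all 20 alternatives. CASP9, the caspase of the apoptosome, rose from 4.13 ± 0.165 to 16.8 ± 0.450 CPM (2.02, SE 0.40, adjusted p = 0.00881); it was below the 20 CPM of the naming rule and was chosen after its values were seen, and it was lost without DMSO replicate 2 or either TSA replicate (adjusted p up to 0.0672). ENDOG and CASP9 were the 2 genes called among 13 of that list, against 29.7% of all genes, and its median was 0.28.

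Among 9 tested other members of the family 3 were called higher and 1 lower under TSA, with a median of -0.995. Among all genes 16.2% were called higher and 13.5% lower. BAD, a BH3-only gene, had 45.9 and 70.4 CPM under DMSO and 118 and 128 under TSA (log2 fold change 1.08, SE 0.29, adjusted p = 0.0275). BCL2L12 had 25.7 and 14.0 CPM under DMSO and 67.0 and 56.2 under TSA (1.64, SE 0.37, adjusted p = 0.0145). BAD was lost without DMSO replicate 1 or either TSA replicate (adjusted p up to 0.129) and when scaled by total counts (0.0772), and BCL2L12 without DMSO replicate 2 or either TSA replicate (up to 0.0996). BIK, another BH3-only gene, rose from 0.393 ± 0.255 (SD, n = 2) to 3.51 ± 2.87 CPM, and BOK, an effector-like gene, fell from 6.51 ± 0.797 to 1.84 ± 0.511 CPM. Both were under the 20 CPM of the naming rule and were named after their values were seen, and both calls were lost without any single DMSO or TSA library. Of 6 tested genes of the outer membrane, VDAC1, the channel that binds several BCL2 proteins, was at -0.74 (SE 0.18, adjusted p = 0.0208). TOMM22, an import receptor, was at -0.65 (SE 0.19, adjusted p = 0.0391). Both thus fell and 0 of the 6 were called higher, against 13.5% of all genes called lower and 16.2% higher. VDAC1 was lost without DMSO replicate 1 or either TSA replicate (up to 0.141), and TOMM22 without any single DMSO or TSA library (up to 0.284).

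Of 10 tested factors that can drive BH3-only genes, 0 were called higher under TSA, against 16.2% of all genes. FOXO3, a known activator of BCL2L11, fell from 76.6 ± 12.5 to 32.4 ± 3.92 CPM under TSA (log2 fold change -1.24, SE 0.21, adjusted p = 0.00543). Its call was lost without TSA replicate 1 (adjusted p = 0.0611). MYCN, the amplified oncogene of the line, had 394 and 313 CPM under DMSO, 215 and 291 under TSA, and 733 and 657 under E6R, and was higher under E6R than under TSA (log2 fold change 1.46, SE 0.23, adjusted p = 0.00273). For the turnover of MCL1 and BIM proteins, 2 of 9 genes were called higher under TSA and 0 lower, against 16.2% and 13.5% of all genes. The 2 were FBXW7, a ubiquitin ligase adaptor for MCL1 (0.79, SE 0.21, adjusted p = 0.0261), and DYNLL2, the dynein light chain that binds BMF (0.78, SE 0.21, adjusted p = 0.0254). Scaled by total counts neither passed, at adjusted p of 0.13 and 0.122, and leaving out a library took FBXW7 out of the calls for each DMSO and TSA library and DYNLL2 for DMSO replicate 1 and each TSA library.

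**Figure D5:**
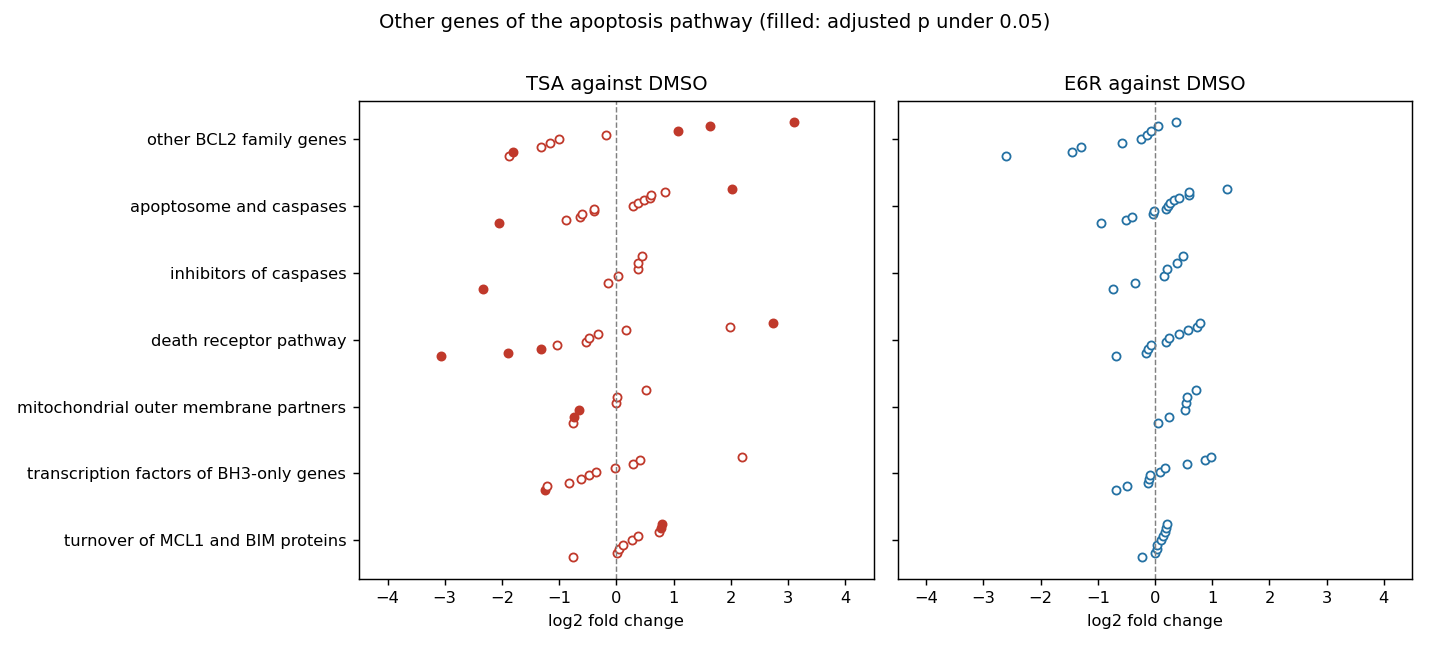
Fitted log2 fold changes of the tested genes of 7 apoptosis lists for TSA and for E6R against DMSO, 1 point per gene, filled where the adjusted p was under 0.05. For TSA 16 genes are filled, and for E6R 0.

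The genes most like BCL2, BCL2L1, BAX and BID, the called members that averaged 20 CPM or more (BMF did not), were sought among 7514 others with a mean of at least 20 CPM, by the root mean square difference of their log2 CPM profiles over the 6 libraries, each centred on its mean. The profile nearest to BCL2 was that of PLXNA4 (0.13), followed by ITPRIPL2 (0.26). For BID the nearest were IGF2BP3 (0.07), which encodes an RNA-binding protein, and BCAT1 (0.09), an enzyme of branched-chain amino acid breakdown. For BAX they were LITAF (0.05) and GSTA4 (0.05), and for BCL2L1 they were OGFOD3 (0.03) and IQSEC1 (0.08). These libraries share their treatments, so the values describe profiles over 6 points.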

How the data were processed

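Seq-Well S3 libraries of SK-N-BE(2)-C cells were deposited as UMI counts per gene and barcode. Per the submitters' processing notes the authors named STARsolo 2.7.9a and GRCh38, and the counts are deposited raw. No source used here gave the strand rule of counting. Cells needed 500 genes or more and 20% mitochondrial UMIs or less, their counts were summed per library, and edgeR 4.0.16 (quasi-likelihood test, TMM, low-count filter, Benjamini-Hochberg adjustment over all 16763 genes, threshold 0.05) was fitted to all 6 libraries with treatment as the term. No doublet caller was run. Every adjusted p in the text is from edgeR unless DESeq2 1.42.0 is named. Intervals of fold changes are 95% intervals from the fitted SE. Data were also simulated for TSA against DMSO with 99 of 16138 genes changed 2-fold and 100 changed 4-fold. The fit recovered 10.1% of these 2-fold and 48% of these 4-fold changes. For E6R against DMSO, with 95 and 98 of 16160 genes changed, it recovered 8.42% and 66.3%. Most changes of 2-fold were thus missed in that setting. In the data themselves 29.7% of all genes were called for TSA against DMSO, so the simulated shares may not apply there.

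The members and lists were chosen with earlier results of these data known. All 10 members are named. Of each other list, called genes averaging 20 CPM or more whose groups did not overlap were eligible, up to 2 in each direction per comparison. Same-numbered libraries deviated together over 7515 genes (r = 0.24 for DMSO and TSA, 0.56 for DMSO and E6R, 0.17 for TSA and E6R), so the replicate numbers were taken to pair the libraries, from the data and the numbers in the labels. The main fit did not use this pairing, so differences between replicate numbers count as spread in its SE and p-values. A fit with the number as a block is among the alternatives. Alternatives changed the scaling, filters, depth, tool, block and libraries. Counting intervals cover UMIs only. Of the gene IDs, 94.6% were in GENCODE 29, which gave the coordinates. Some genes of the lists, and 1 list, are not reported here.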

Additional observations from a re-analysis of the deposited data

Results flagged for a closer look

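Barcodes of 100 to under 300 genes stood outside all comparisons. Of the members not near the floor of counts, 2 were higher there in both libraries of a treatment than in both DMSO libraries. PMAIP1 had 14.5 and 16.2 CPM in these barcodes under E6R, against 5.31 and 8.07 CPM under DMSO. BMF had 11.7 and 19.6 CPM in them under TSA, against 4.42 and 5.55 CPM under DMSO. BBC3 also lay above both DMSO libraries under E6R, but with 2 and 3 UMIs it was not flagged. The rule sought rises only. Under TSA, BCL2, BCL2L1, MCL1, BAX and BID lay below both DMSO libraries in these barcodes. BCL2 had 4.29 and 4.32 CPM in them under TSA, against 54.0 and 20.7 CPM under DMSO. None of these differences was tested, and the share of all genes above or below DMSO in this way in these barcodes was not counted.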

How the results depend on the processing

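For TSA against DMSO, 2 members were called without the 5% of cells with most UMIs (27.4% of all genes), and 1 to 4 when 1 library was left out, where 7.79% (without TSA replicate 2) to 33.6% (without E6R replicate 2) of all genes were called. For E6R against DMSO, 1 was called with no low-count filter (3.47% of all genes). For E6R against TSA, 5 were called with no low-count filter (24.0% of all genes) and 5 with DESeq2 (39.4%), and 2 to 3 with 1 library left out. With the replicate number as a block the counts were 4, 0 and 4, and the block changed no call of a member other than BMF for E6R against TSA (log2 -1.77). A fit that leaves a treatment with 1 library assumes that it varies like the others.

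No called member changed sign. Uncalled log2 values did, and the cause was not tested. For TSA against DMSO, total counts gave -0.19 for MCL1 and -0.0296 for PMAIP1, thinned cells gave -0.000703 and -0.46, and leaving out DMSO replicate 2 gave -0.21 for PMAIP1 and -0.00436 for BBC3. For E6R against DMSO, leaving out E6R replicate 1 gave -0.41 for BCL2, -0.52 for BCL2L11 and -0.48 for BMF. No filter gave 0.00701 for BCL2L1 and 0.0887 for MCL1. MCL1 was 0.11 and BCL2L11 -0.07 without DMSO replicate 2, MCL1 was 0.31 without E6R replicate 2, and BBC3 was 0.39 without DMSO replicate 1. Without the 5% of cells with most UMIs BBC3 was 0.10 and BAK1 -0.0203, and BAK1 was -0.0245 with total counts and -0.0187 with thinned library sums. For E6R against TSA, MCL1 was 0.0557 with no filter, and without E6R replicate 2 it was 0.17 and BCL2L11 0.35. For mitotic-high cells, BCL2 was 0.13 in the top 10%, and unthinned cells gave 0.0844 for MCL1, 0.0701 for BAX and -0.26 for PMAIP1. PMAIP1 was -0.0497 with no filter, -0.00590 with no library or replicate block and -0.10 without DMSO replicate 2. Where leaving out a library turned a sign, the other end of the range over left-out libraries was 0.89 for PMAIP1 and 0.99 for BBC3 (TSA against DMSO), 1.42 for BCL2, -0.43 for MCL1, 1.36 for BCL2L11, -0.59 for BBC3 and 1.40 for BMF (E6R against DMSO), -0.58 for MCL1 and -1.23 for BCL2L11 (E6R against TSA), and 0.19 for PMAIP1 (mitotic-high cells).

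Low counts limit BBC3, with 9 to 51 UMIs in a library.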
